A study of Homo sapiens with 9 samples.

Results

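The 7 genes described here encode 3 Tribbles pseudokinases (TRIB1, TRIB2 and TRIB3) and 4 factors of the CCAAT/enhancer-binding protein (C/EBP) family (CEBPA, CEBPB, CEBPD and CEBPG). They were taken by symbol from the array annotation, and all 7 were among the 19775 genes measured. Together they have 13 probe sets with 1 symbol, of 41091 such probe sets on the array. The probe set that stands for each gene was chosen by its mean over all 9 arrays, the brightest being used. The families themselves were chosen from earlier results of these same comparisons, which held the changes of TRIB1 and TRIB2 from DMSO, so the adjusted p-values below say where each gene stood in the fit over all genes and are no independent evidence that the families respond.

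The samples were H295R cells, which derive from a human adrenocortical carcinoma and secrete aldosterone and cortisol, harvested 3 h after treatment. The groups were 100 nM angiotensin II, 100 nM torcetrapib (named in the labels by its compound code) and DMSO alone as the vehicle, with 3 arrays each. Angiotensin II is the peptide hormone that stimulates aldosterone secretion, and torcetrapib blocks CETP, which moves cholesteryl esters between lipoproteins. The study asked whether such inhibitors act on adrenal cells as the renin-angiotensin system does. All groups share this one cell line, and nothing in the labels states that replicate arrays stem from different cultures. The p-values therefore describe spread among these arrays, and that spread may be technical.

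Tribbles proteins have a kinase fold with little or no catalytic activity and work as adaptors. TRIB1 and TRIB2 bring the ubiquitin ligase COP1 to C/EBP-alpha and so lead to its degradation, while TRIB3 is a stress-induced member that binds the kinase AKT and is transcribed under ATF4 and CHOP. C/EBP factors are basic leucine zipper proteins that bind DNA as dimers with each other or with relatives such as ATF4. CEBPA is tied to differentiation and growth arrest, CEBPB and CEBPD are quickly induced by cAMP, cytokines and stress in many cells, and CEBPG lacks an activation domain and pairs with other factors. In steroidogenic cells C/EBP factors have been described at the promoter of STAR, the protein that carries cholesterol into mitochondria.

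The values are log2 expression. Of 8 adrenocortical markers 7 were measured, CYP21A2 being not analysed here, and 0 of these lay below the dim limit of 4.87, the lower quartile of gene means. Their mean log2 level was 9.73 to 9.84 on angiotensin II arrays, 9.63 to 9.72 on torcetrapib arrays and 9.50 to 9.67 on DMSO arrays, and STAR, MC2R and FDX1 were called higher with angiotensin II and FDX1 with torcetrapib. Markers of adrenal medulla (4 genes), fibroblasts (4), endothelium (3) and immune cells (4) had 0 calls against DMSO with either agent by limma (3 with angiotensin II and 0 with torcetrapib at an unadjusted p of 0.05). Of these, TH, LUM, CDH5, PTPRC and LYZ lay below the dim limit and the rest above it. The highest means over 9 arrays were 7.72 for COL1A1 and 6.86 for CHGA, beside 7.12 and 7.14 for the adrenocortical NR5A1 and MC2R. Between the agents the fibroblast marker COL3A1 (-0.36, limma adjusted p = 0.0268) and the adrenocortical markers STAR, CYP17A1 and FDX1 were lower with torcetrapib than with angiotensin II, and their part in the results on the 7 genes was not tested. The STAR call between the agents was lost in 11 of its 20 alternatives. In a bulk sample fewer cells that express a gene and less RNA per cell cannot be told apart. A 5′ to 3′ index of RNA quality, taken from the ACTB and GAPDH control probe sets as 5′ signal minus 3′ signal in log2 units, was -0.62 ± 0.02 (SD, n = 3) with angiotensin II, -0.24 ± 0.03 with torcetrapib and -0.50 ± 0.22 with DMSO. All 3 torcetrapib arrays (-0.28 to -0.22) were above the other 6, though DMSO replicate 2 at -0.28 lay next to the lowest of them, with p = 0.1 against either group by a two-sided exact permutation test, the smallest p that 3 against 3 arrays allow. Values with this index as a covariate are given beside several of the torcetrapib results. Within groups the index varied mostly among the DMSO arrays (SD 0.22, against 0.02 and 0.03), so that fit leans on those 3 arrays. The index also ran largely with torcetrapib treatment, and the fit can hardly separate the 2. Values from it are no clean adjustment for RNA quality.

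TRIB1 had the largest change of the 7 genes and rose with both agents. Its log2 level was 11.82, 11.85 and 11.87 on the angiotensin II arrays, 9.50, 9.66 and 9.55 on the torcetrapib arrays and 8.52, 8.40 and 8.58 on the DMSO arrays. The 3 groups formed 3 separate bands with no overlap, angiotensin II highest and DMSO lowest. TRIB1 was 10.2-fold higher with angiotensin II than with DMSO and 2.10-fold higher with torcetrapib than with DMSO (limma adjusted p = 1.85e-15 and 2.3e-08). At the same dose and time it was 4.84-fold lower with torcetrapib than with angiotensin II, a log2 difference of -2.27 ± 0.06 (SE) with a 95% interval from -2.40 to -2.15 (limma adjusted p = 1.09e-12). The log2 change with torcetrapib came to 0.320 of that with angiotensin II. With the RNA quality index as a covariate the TRIB1 changes were 3.32 with angiotensin II and 1.13 with torcetrapib, and both calls stood.

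The rise of TRIB1 was read by 1 of its 3 probe sets. Probe set 239818_x_at averaged 4.06 with angiotensin II, 4.02 with torcetrapib and 3.72 with DMSO, and probe set 235641_at 3.31, 3.21 and 3.19 in the same order of groups. Both lie below the dim limit, and their changes from DMSO ran from 0.02 to 0.34 with no call (limma adjusted p over all probe sets from 0.0544 to 0.953). With the mean of the 3 probe sets as the value of TRIB1 its change was 1.27 with angiotensin II and 0.46 with torcetrapib, both still called.

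TRIB2, which shares the COP1-binding function of TRIB1, fell with both agents. It measured 9.32, 9.35 and 9.35 with angiotensin II, 9.21, 9.15 and 9.07 with torcetrapib and 9.60, 9.55 and 9.75 with DMSO. All 6 treated arrays lay below all 3 DMSO arrays, and the torcetrapib arrays lay below the angiotensin II arrays. TRIB2 was 1.23-fold lower with angiotensin II (log2 change -0.30 ± 0.06 SE, limma adjusted p = 0.00617) and 1.40-fold lower with torcetrapib (-0.49 ± 0.06, limma adjusted p = 0.000502). The direct difference between the agents, torcetrapib minus angiotensin II, was -0.19 with a 95% interval from -0.32 to -0.06 and did not pass (limma adjusted p = 0.0539, range over its alternatives 0.00983 to 0.799). With the index as a covariate the change with torcetrapib was -0.45 (limma adjusted p = 0.0279).

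The fall of TRIB2 rests on its brighter probe set. The other, 202479_s_at, averaged 8.08 with angiotensin II, 8.12 with torcetrapib and 8.16 with DMSO. Its changes of -0.09 and -0.04 did not pass, with 95% intervals from -0.33 to 0.16 and from -0.29 to 0.20. The interval for torcetrapib does not reach the -0.49 of the brighter probe set. The mean of both probe sets changed by -0.19 with angiotensin II and -0.27 with torcetrapib and lost both calls (limma adjusted p = 0.211 and 0.165, ranges over the alternatives 0.000215 to 0.211 and 8.97e-05 to 0.165).

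TRIB3, the stress-induced member, had no call in any comparison. The log2 levels were 9.13, 9.09 and 9.23 with angiotensin II, 9.31, 9.32 and 9.22 with torcetrapib and 9.17, 9.12 and 9.33 with DMSO. The treated arrays overlapped the DMSO arrays in both cases. The changes were -0.06 with angiotensin II (95% interval -0.20 to 0.08) and 0.07 with torcetrapib (-0.06 to 0.21), so for this probe set changes beyond 0.21 in size lie outside both intervals. With array weights its difference between the agents was called (0.16, limma adjusted p = 0.0107). That fit leans on angiotensin II replicate 1, with a weight of 6.15 against 0.45 and 0.48 for replicates 2 and 3. The dimmer TRIB3 probe set 1555788_a_at had wider intervals. It changed by -0.15 with angiotensin II (-0.38 to 0.08) and by 0.19 with torcetrapib (-0.04 to 0.41). It differed by 0.34 ± 0.10 (SE) between torcetrapib and angiotensin II, with adjusted p = 0.0601 over all probe sets by limma.

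**Figure D1:**
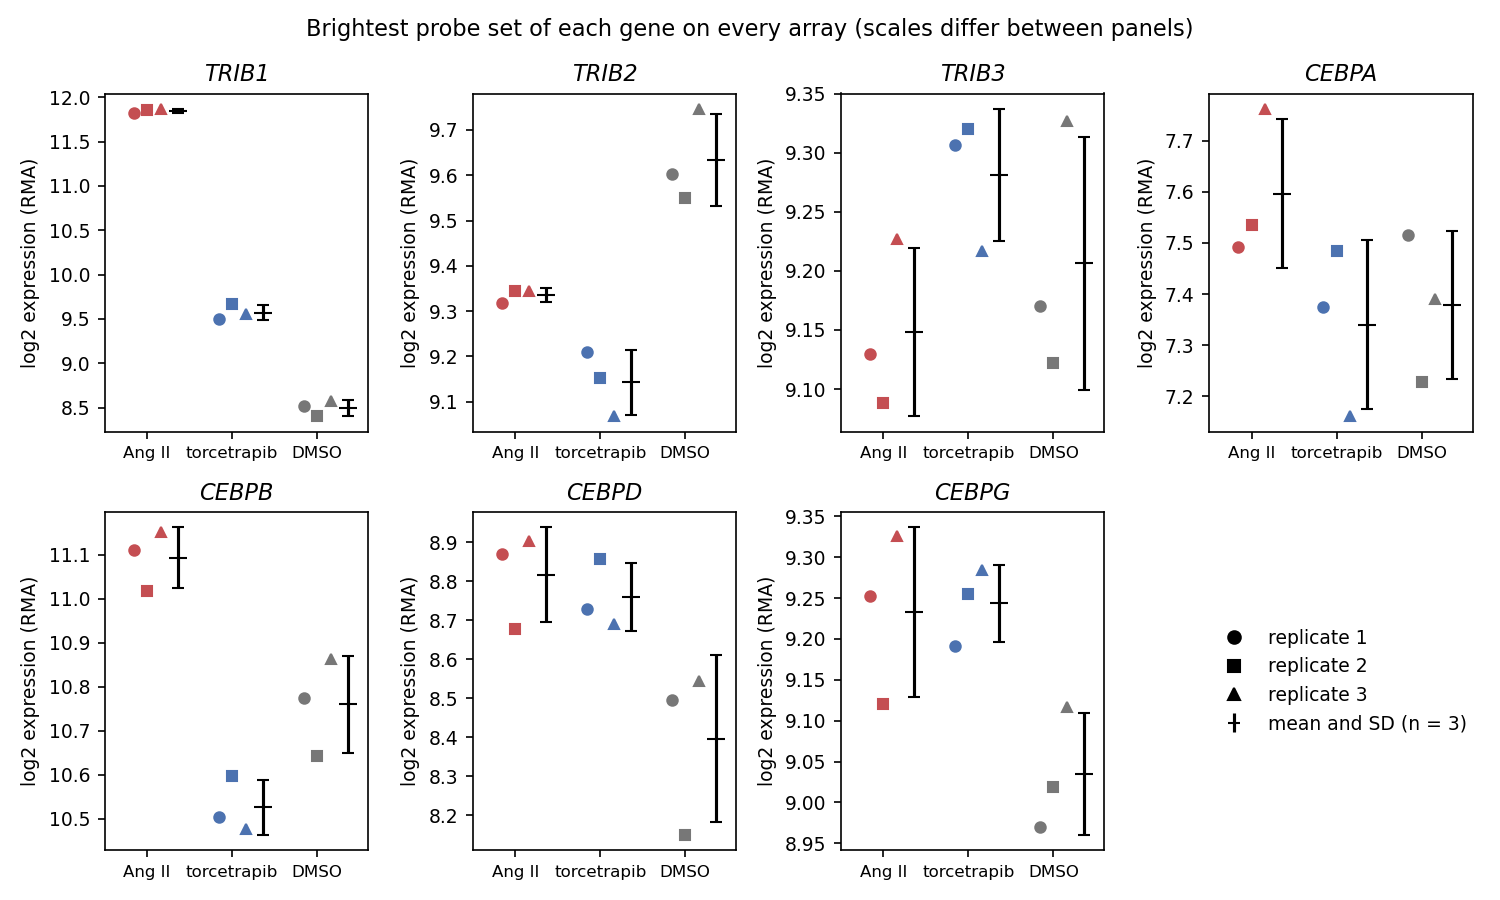
Log2 expression of the brightest probe set of each gene on each of the 9 arrays, with symbols for replicates, and the mean and SD of each group of 3 as a black bar. TRIB1 forms 3 separate bands (11.85, 9.57 and 8.50 on average), all treated TRIB2 arrays lie below the DMSO arrays, and CEBPB is highest with angiotensin II and lowest with torcetrapib.

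CEBPB was the gene whose arrays with the 2 agents lay on opposite sides of all DMSO arrays. Log2 levels of 11.11, 11.02 and 11.15 were measured with angiotensin II, 10.50, 10.60 and 10.48 with torcetrapib and 10.78, 10.64 and 10.86 with DMSO. All angiotensin II arrays were above and all torcetrapib arrays below the DMSO arrays, though torcetrapib replicate 2 lay within 0.1 of DMSO replicate 2. CEBPB rose 1.26-fold with angiotensin II (log2 change 0.33 ± 0.06 SE, limma adjusted p = 0.00129). With torcetrapib its change of -0.23 ± 0.06 did not pass (limma adjusted p = 0.0606), and adjusted p ranged from 0.00517 to 0.871 over the alternatives. It passed in 6 of its 20 alternatives, among them array weights (-0.24, limma adjusted p = 0.00517) and without DMSO replicate 2 (-0.29, limma adjusted p = 0.00521). It was furthest from passing with the RNA quality index as a covariate (-0.17, limma adjusted p = 0.871). Between the agents CEBPB was 1.48-fold lower with torcetrapib than with angiotensin II, a log2 difference of -0.57 (95% interval -0.69 to -0.45, limma adjusted p = 7.7e-06). That difference was called in all 20 alternatives computed for it, with values from -0.60 to -0.47. Some of these left the difference itself unchanged, such as the mean of probe sets and leaving out a DMSO array. CEBPB has a single probe set, so no second one bears on these values.

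CEBPD, the other quickly induced factor, lay above DMSO on all treated arrays. On the log2 scale it read 8.87, 8.68 and 8.90 with angiotensin II, 8.73, 8.86 and 8.69 with torcetrapib and 8.50, 8.15 and 8.54 with DMSO. All 6 treated arrays were above the DMSO arrays, of which replicate 2 was the lowest. CEBPD rose 1.34-fold with angiotensin II (log2 change 0.42 ± 0.10 SE, limma adjusted p = 0.0131). The change with torcetrapib, 0.36 ± 0.10, did not pass (limma adjusted p = 0.0842, range 0.0212 to 0.793), and the torcetrapib minus angiotensin II difference was -0.06 with a 95% interval from -0.26 to 0.15. With the index as a covariate these 2 values were 0.55 (limma adjusted p = 0.072) and 0.21, so the second had the opposite sign. The call with angiotensin II ended in 5 of its 20 alternatives (limma adjusted p from 0.000399 to 0.115 over all of them). It ended when replicate 1 or replicate 3 of angiotensin II was left out (limma adjusted p = 0.0662 and 0.0605). It also ended without the intensity trend (0.0573), with only the 2 groups compared (0.056) and without _x_at and _s_at probe sets (0.115). Without DMSO replicate 2 the changes were 0.30 with angiotensin II and 0.24 with torcetrapib. The main value comes from a probe set of the _s_at type, which can bind several transcripts, while the other, 213006_at, averaged 3.71 with angiotensin II, 3.55 with torcetrapib and 3.47 with DMSO, below the dim limit.

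CEBPG and CEBPA had no call in any comparison. CEBPG, a partner of ATF4, had log2 levels of 9.25, 9.12 and 9.33 with angiotensin II, 9.19, 9.25 and 9.28 with torcetrapib and 8.97, 9.02 and 9.12 with DMSO. All 6 treated arrays lay above the DMSO arrays, angiotensin II replicate 2 by the least. Its changes were 0.20 ± 0.06 (SE) with angiotensin II and 0.21 ± 0.06 with torcetrapib (limma adjusted p = 0.0953 and 0.153), with 0.01 between the agents (95% interval -0.13 to 0.15). The dimmer CEBPG probe set 225527_at changed by 0.17 and 0.07. The angiotensin II change passed in 3 of its 20 alternatives, without angiotensin II replicate 2 among them (0.25, adjusted p = 0.0318, range 0.00329 to 0.282).

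CEBPA, the factor that TRIB1 and TRIB2 target as a protein, varied between replicates with SDs of 0.15, 0.16 and 0.14 in the angiotensin II, torcetrapib and DMSO groups. Its arrays read 7.49, 7.53 and 7.76 with angiotensin II, 7.38, 7.48 and 7.16 with torcetrapib and 7.52, 7.23 and 7.39 with DMSO. The treated arrays overlapped the DMSO arrays with either agent. Its changes were 0.22 ± 0.10 (SE) with angiotensin II (95% interval -0.01 to 0.44) and -0.04 ± 0.10 with torcetrapib (-0.26 to 0.19), and the torcetrapib arrays were all below the angiotensin II arrays (difference -0.26, limma adjusted p = 0.139). With the index as a covariate that difference was -0.036, and the torcetrapib change from DMSO was 0.11. These are transcript levels, and protein was not measured.

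**Figure D2:**
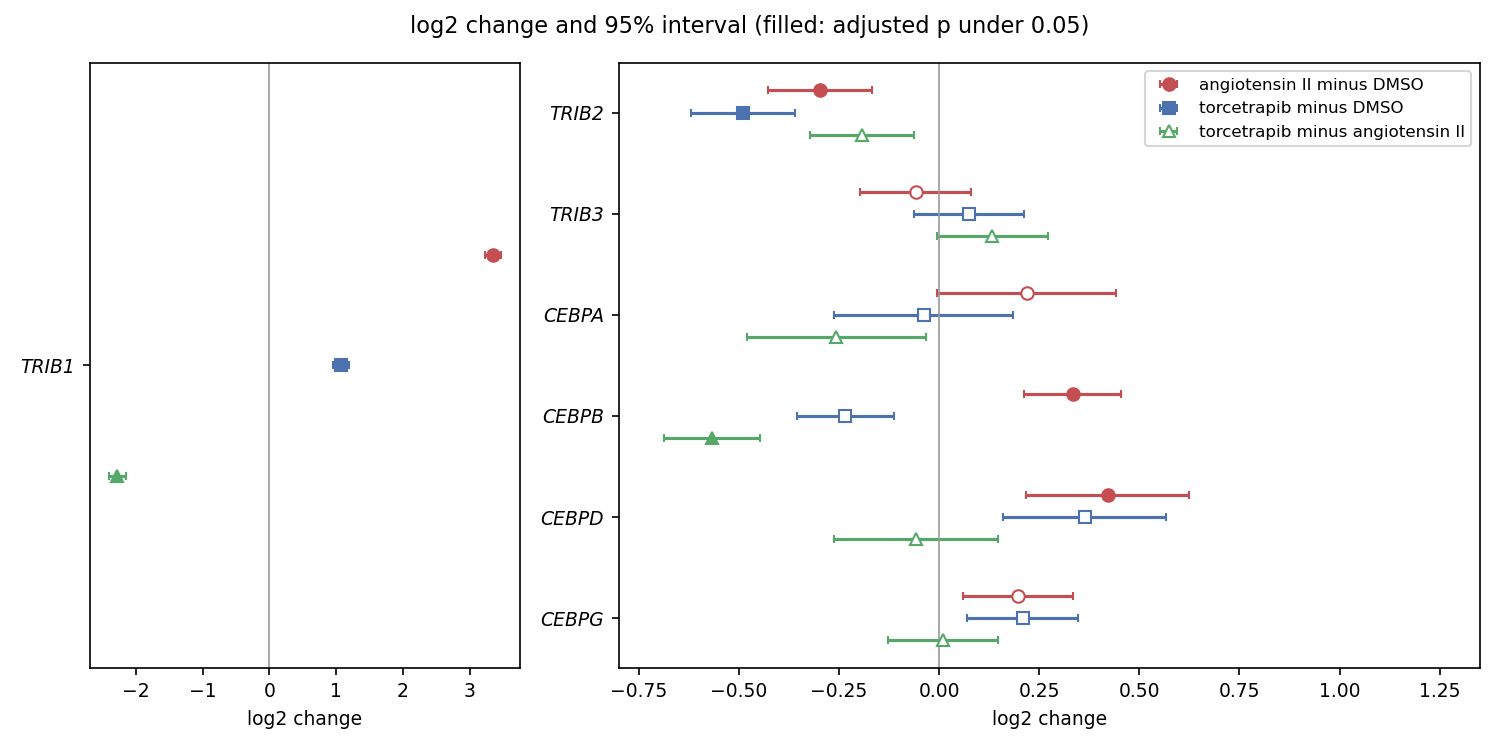
Log2 change (x axis) of each gene in the 3 comparisons, with 95% intervals from limma and filled symbols for adjusted p under 0.05. TRIB1 is drawn on its own scale; the intervals of CEBPB with angiotensin II and with torcetrapib lie on opposite sides of 0, at 0.33 and -0.23.

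Over the 7 genes, 4 were called with angiotensin II, 3 higher and 1 lower, where 6.12% of all genes were called (3.36% higher and 2.76% lower). With torcetrapib 2 were called, TRIB1 higher and TRIB2 lower, against 1.16% of all genes (0.592% higher and 0.566% lower). Between the agents TRIB1 and CEBPB were called, both lower with torcetrapib, against 11.3% of all genes (4.61% higher and 6.68% lower). Groups did not overlap in 5 of the 7 genes with angiotensin II, in 5 with torcetrapib and in 4 between the agents, where all genes gave 17.6%, 16.5% and 28.6%. The median change of the 7 was 0.22 with angiotensin II, 0.07 with torcetrapib and -0.19 between the agents, beside medians over all genes of 0.01, -0.03 and -0.04. Because the genes were proposed with these comparisons known, nothing is read from those shares. The 2 comparisons with DMSO share their DMSO arrays, and DMSO replicate 2 was the lowest of the 3 in 6 of the 7 genes, as it was in 59.1% of genes at or above the median level.

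**Figure D3:**
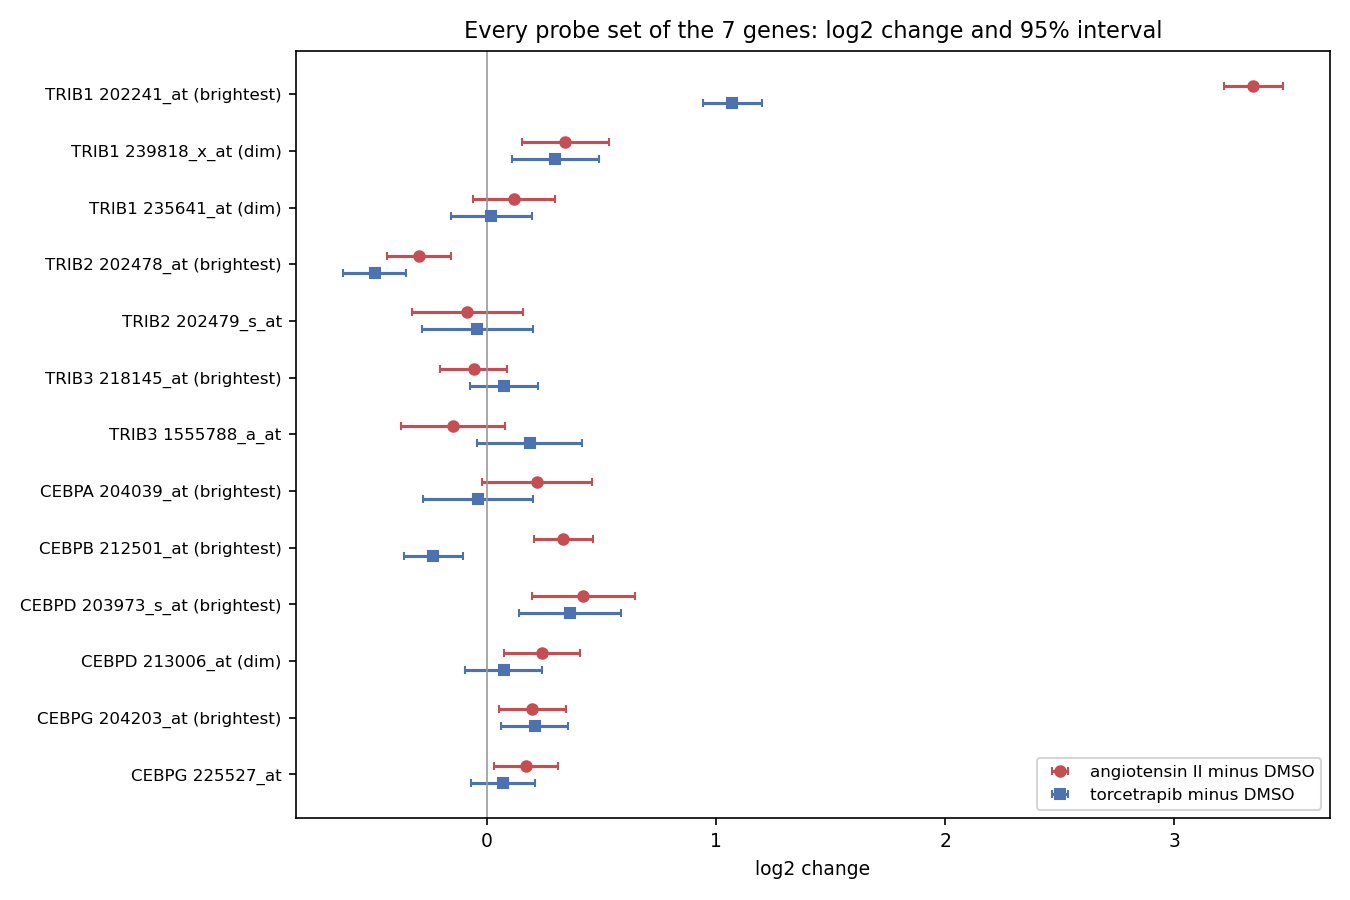
Log2 change (x axis) from DMSO of all 13 probe sets of the 7 genes with angiotensin II (circles) and torcetrapib (squares), with 95% intervals from a fit over all probe sets. The change of 3.34 in TRIB1 is seen with 202241_at alone, its other probe sets being dim, and the second TRIB2 probe set lies at -0.09 and -0.04.

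Promoter sequence is shown for TRIB2, CEBPB and CEBPG, whose treated arrays did not overlap the DMSO arrays with either agent. Such groups were seen in 17.6% of all genes with angiotensin II and 16.5% with torcetrapib. CEBPG had no call, CEBPB had none from DMSO with torcetrapib, and the fall of TRIB2 rests on its brighter probe set. Each of these promoters holds a match to a motif of cAMP, stress or forkhead factors. The windows of TRIB3 and CEBPA were searched as well and held no match to any of the motifs. RefSeq windows (GRCh38.p14) of 300 bases, with 250 before and 50 after each annotated start, were used for 5 of the 7 genes in 9 windows, and those of TRIB1 and CEBPD are not shown. The motifs, searched on both strands, were TGACGTCA (the cAMP response element) and its core TGACG, TGATGNAA (a composite site of C/EBP and ATF factors), TTGCNNAA (a C/EBP core), the CCAAT box, an AP-1 site written TGANTCA, and TGTTTAC (a forkhead site); TGACG lies within TGACGTCA. Each run below is 30 bases, 5′ to 3′ on the plus strand, which is also the strand of the gene, with the matching letters in capitals.
CEBPB, core TGACG, chr20:50190761-50190790: gaggggccggcgTGACGcagcggttgctac
CEBPG, composite TGATGNAA, chr19:33374060-33374089: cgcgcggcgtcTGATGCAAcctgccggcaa
TRIB2, forkhead TGTTTAC, chr2:12716686-12716715: tTGTTTACctccccggccgggcgagggagc

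The CEBPB match starts 57 bases before the downstream of 2 annotated starts and is the only TGACG in the 9 windows, a motif found in 24.6% of all 35116 promoter windows. The CEBPG match starts 42 bases before a start, and TGATGNAA occurs in 3.62% of all windows. Both this match and that of CEBPB lie downstream of the other annotated start of their gene. The TRIB2 match starts 249 bases before the start, and TGTTTAC occurs in 3.42%. TGACGTCA, TTGCNNAA and TGANTCA had 0 matches in the 9 windows, against 1.85%, 10.5% and 7.71% of all windows, and CCAAT had matches in 3 of the 9 (34.6% of all). The windows of CEBPB overlap, as do those of TRIB3, so the 9 are not separate stretches. The CCAAT match counted in both CEBPB windows is the same bases. A match describes letters in a window and does not show that a factor binds there.

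Partners and regulators of C/EBP factors, basic leucine zipper proteins and cofactors, moved at a few members. This list and those below were written from general knowledge, but with earlier results of these data known. Nothing is therefore read from their counts beside the shares of all genes. Of 18 measured, 6 rose and 0 fell with angiotensin II, and 4 rose and 0 fell with torcetrapib (8 and 6 at an unadjusted p of 0.05), where 6.12% and 1.16% of all genes were called. Between the agents 8 were lower and 0 higher with torcetrapib, beside 11.3% of all genes, and 5 were called with the index as a covariate. Without _x_at and _s_at probe sets the torcetrapib count was 2. With angiotensin II the largest were ATF3, a repressor-type partner, with a log2 change of 3.77 ± 0.07 (SE), NFIL3 with 2.91 ± 0.06, FOS with 2.82 ± 0.07 and JUN with 1.62 ± 0.06. With torcetrapib these were 0.91, 1.00, 1.04 and 0.42 in the same order. The sizes for ATF3 and JUN depended on the probe sets: with angiotensin II the lowest alternative was 1.96 for ATF3, with the mean of probe sets, and 0.88 for JUN, without _x_at and _s_at probe sets, both still called. The JUN call with torcetrapib ended without the intensity trend, and JUN and ATF3 lost theirs without _x_at and _s_at probe sets (adjusted p = 0.285 and 0.0536). The median of the list was 0.07 with angiotensin II and 0.05 with torcetrapib, and 12 and 14 of its members had no call.

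DDIT3 (CHOP), the C/EBP relative that blocks DNA binding of its partners, rose with angiotensin II. Its log2 level was 0.84 ± 0.06 (SE) above DMSO with angiotensin II and 0.08 ± 0.06 above it with torcetrapib (limma adjusted p = 2.09e-07 and 0.676). The difference between the agents, torcetrapib minus angiotensin II, was -0.76 (95% interval -0.89 to -0.63, limma adjusted p = 8.32e-07). ATF4, the partner of CEBPG and CEBPB in amino acid stress, rose by 0.37 ± 0.04 with angiotensin II and had a change of 0.07 ± 0.04 with torcetrapib.

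Among 25 ATF4 targets, which include TRIB3 and CEBPB, 9 rose and 2 fell with angiotensin II, and 8 of those that rose were not among the 7 genes. Calls were made for 6.12% of all genes in that comparison, and the 11 calls in the list were 6 without _x_at and _s_at probe sets (6 to 15 over the alternatives). The largest were PPP1R15A, which reverses the phosphorylation of eIF2-alpha, with a log2 change of 1.80, DDIT3 with 0.84, the glutathione-degrading enzyme CHAC1 with 0.71 and the amino acid transporter subunit SLC3A2 with 0.65. TRIB3 was not among the targets that rose. DDIT3 and ATF5 are also among the C/EBP partners above, and their calls count in both lists. The serine synthesis enzyme PSPH and the lipoprotein receptor VLDLR were lower, at -0.27 and -0.43. With torcetrapib 0 of the 25 were called by limma, beside 1.16% of all genes (8 at an unadjusted p of 0.05, and 0 to 3 over the alternatives). The list median was 0.16 with angiotensin II and 0.01 with torcetrapib. Between the agents 11 targets were lower and 1 higher with torcetrapib, beside 11.3% of all genes called. The count of 12 calls was 5 with the index as a covariate and 5 without _x_at and _s_at probe sets. With the index, calls over all genes fell from 2232 to 280, and the counts of the other lists with the index stand beside the same fall.

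Of 23 measured genes known as C/EBP targets, 4 rose and 0 fell with angiotensin II, and 1 rose and 1 fell with torcetrapib (5 and 5 at an unadjusted p of 0.05), with medians of 0.04 and -0.06. All genes were called at 6.12% and 1.16%. Between the agents 4 were lower and 0 higher with torcetrapib, beside 11.3% of all genes, and 2 were called with the index as a covariate. STAR was among the 4, at -0.13, and its call was lost in 11 of its 20 alternatives (limma adjusted p from 0.00205 to 0.209 over them). Without _x_at and _s_at probe sets the counts were 2 with angiotensin II, 1 with torcetrapib and 2 between the agents. GADD45A, a growth arrest protein, rose by 1.89 ± 0.05 (SE) with angiotensin II and by 0.60 ± 0.05 with torcetrapib. With angiotensin II the gluconeogenic enzyme PCK1 rose by 0.89 ± 0.12 and the cell cycle inhibitor CDKN1A by 0.87 ± 0.05, against 0.29 ± 0.12 and 0.08 ± 0.05 with torcetrapib, which did not pass. PCK1 lay below the dim limit, at 4.58 with angiotensin II, 3.99 with torcetrapib and 3.69 with DMSO, so the size of its change is uncertain. STAR rose by 0.20 ± 0.04 with angiotensin II and had a change of 0.08 ± 0.04 with torcetrapib (limma adjusted p = 0.00304 and 0.417), and the angiotensin II call ended without the intensity trend (adjusted p = 0.0891, range 3.69e-05 to 0.0891). The desaturase SCD was the one lower with torcetrapib, at -0.23 ± 0.05. The SCD call ended without DMSO replicate 1 or 3 or any one torcetrapib array (adjusted p from 0.0834 to 0.116). It also ended with the index as a covariate (-0.20, adjusted p = 0.454), without the trend (0.19) and with arrays centred (0.0922), and with the mean of its probe sets SCD had the opposite sign, 0.19.

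Of 15 measured partners of Tribbles proteins, 0 were called with angiotensin II by limma (3 at an unadjusted p of 0.05, and 0 to 3 over the alternatives) and 1 with torcetrapib, beside 6.12% and 1.16% of all genes. COP1 itself had changes of -0.05 ± 0.05 (SE) with angiotensin II and -0.13 ± 0.05 with torcetrapib (limma adjusted p = 0.717 and 0.295), and with torcetrapib 0.19 when _x_at and _s_at probe sets were left out. The call with torcetrapib was the kinase AKT2, at 0.32 ± 0.07 (limma adjusted p = 0.0252), which was -0.28 without those probe set types. The AKT2 call also ended without DMSO replicate 3 or any one torcetrapib array (adjusted p from 0.0802 to 0.152). It was likewise lost with the index as a covariate (0.36, adjusted p = 0.179), the mean of probe sets (0.353), no trend (0.121), arrays centred (0.0789) and only the 2 groups compared (0.0622). Between the agents the pseudokinase relative STK40 (-0.46), AKT1 (-0.30) and CRTC2 (-0.27) were lower with torcetrapib and AKT2 higher (0.35), beside 11.3% of all genes called. Of these 4 calls 0 were left with the index as a covariate. The list had 2 calls without angiotensin II replicate 1, 2 without torcetrapib replicate 1 and 1 without torcetrapib replicate 3. AKT2 was -0.26 without _x_at and _s_at probe sets.

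**Figure D4:**
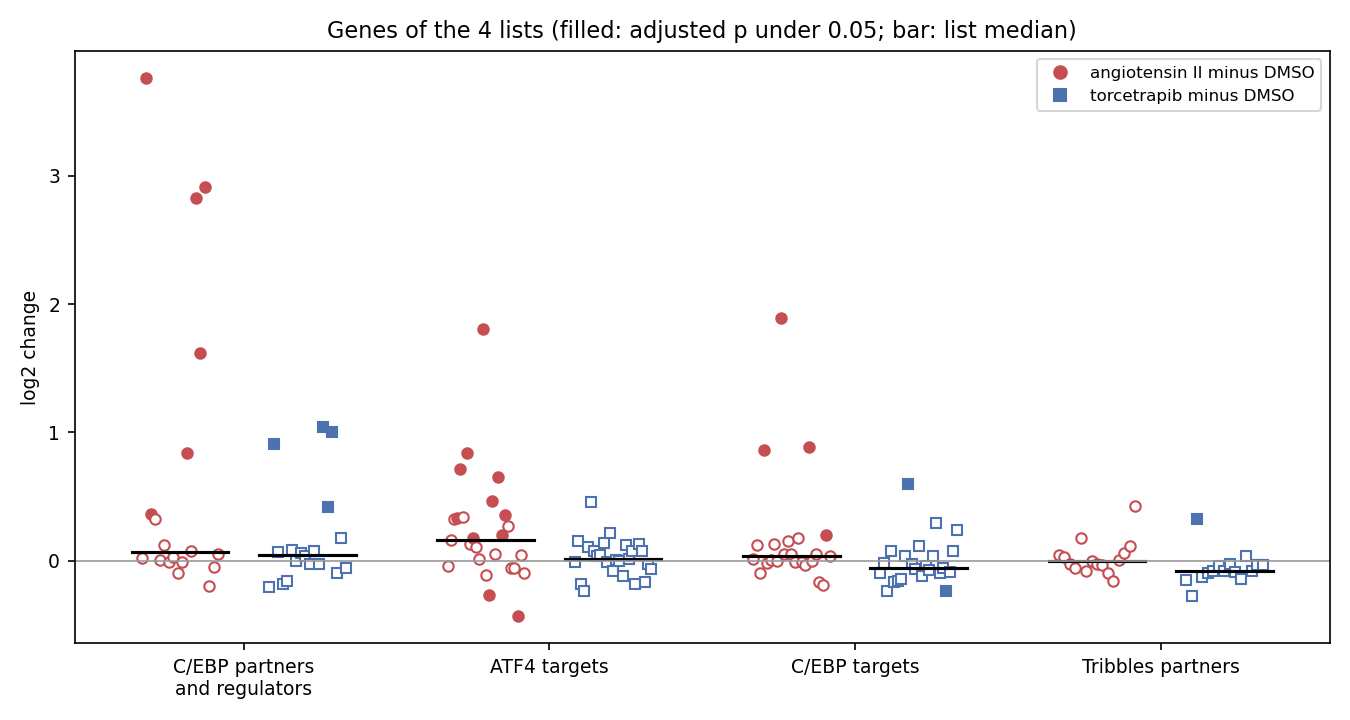
Log2 change (y axis) from DMSO of every gene of the 4 lists with angiotensin II (circles) and torcetrapib (squares), filled where adjusted p was under 0.05, with the list median as a bar. ATF4 targets have 11 filled circles and 0 filled squares, and the leading C/EBP partner is ATF3 at 3.77 with angiotensin II.

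The genes whose profile over the 9 arrays lay closest to each called member were found by the root mean square difference after each gene's own DMSO mean was subtracted. Closest to TRIB1 were TAC1 (0.252), the bZIP repressor NFIL3 (0.254) and the transcription factor MITF (0.258), and the spread of TRIB1 among its own DMSO arrays was 0.0733 on that measure. Closest to TRIB2 were DAND5 (0.0726), SOX8 (0.0892) and AUTS2 (0.104). Closest to CEBPB were GLIS2 (0.0422), RNF44 (0.0548) and KSR1 (0.0567), each higher with angiotensin II and lower with torcetrapib in their means. GLIS2 changed by 0.36 and -0.21 in the 2 treatments, beside 0.33 and -0.23 in CEBPB. Closest to CEBPD were LUZP1 (0.0621), KLF7 (0.0626) and ANXA1 (0.0833). On the same measure the spread among own DMSO arrays was 0.0829 for TRIB2, 0.0900 for CEBPB and 0.175 for CEBPD. All distances given for CEBPB and CEBPD lay below that spread. Shared directions follow from the way the genes were picked and are no further result. These are likenesses over 9 arrays of 3 groups, given without a test.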

How the data were processed

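Total RNA of 9 H295R samples was column-purified, biotin-labelled and hybridised to Affymetrix arrays, per the labels' protocols. The deposited values are log2 expression of 54675 probe sets, made by the authors with RMA per the submitters' processing notes; the sources used here name no software, version or chip description file. They were used without renormalising. The 62 control probe sets, 1801 with several symbols and 11721 with none were left out. Each of 19775 genes took its brightest probe set by the mean over 9 arrays.

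One limma 3.58.1 model (R 4.3.3) with 3 group means and 6 residual degrees of freedom was fitted to all genes, in which the prior variance followed intensity. Two-sided p-values were adjusted within each comparison across every gene (Benjamini-Hochberg), and genes under 0.05 were called. The 95% intervals are not adjusted. The fit was tested on simulated data. Members and lists were chosen with earlier results of these data known. All 7 members are named, with up to 4 called genes of largest change per list and comparison, DDIT3, ATF4, COP1 and STAR, and the 3 closest genes to each called member; the 2 lower ATF4 targets and GLIS2's values were added after values were seen. Some listed genes are not analysed here. The number of arrays limits precision. Alternatives were other variance moderation, filters, scalings, probe set rules, weights, thresholds, left-out arrays and the 5′ to 3′ index as a covariate.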

Additional observations from a re-analysis of the deposited data

How the results depend on the processing

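Of 420 recomputed changes of the 7 genes, 381 kept their direction and side of the threshold, 7 lost a call, 21 gained one and 11 turned in sign, all of the last from changes without a call. Some of the 420 repeat the main change, as where a gene has a single probe set or the left-out array is of a group not compared. Genes called numbered 3 to 5 with angiotensin II without single arrays (4 with all). With torcetrapib 2 were called, and 1 with the mean of probe sets, 4 with values quantile normalised again, 5 with array weights and 4 at a threshold of 0.1. Between the agents 2 were called, and 4 with quantile normalisation and 4 with array weights. All results with array weights lean on angiotensin II replicate 1, whose weight was 6.15 against 0.45 and 0.48 for replicates 2 and 3. Calls over all genes moved more. With angiotensin II 1210 were called, 2712 with array weights and 767 at a threshold of 0.01. With torcetrapib 229 were called (117 of them higher), and 50 without the trend, 120 with arrays centred (79 higher), 507 with quantile normalisation (171 higher), 108 with the mean of probe sets, 136 without _x_at and _s_at probe sets, 1272 with array weights, 145 with only the 2 groups compared, 76 with the index in the model, 78 and 503 at thresholds of 0.01 and 0.1, and 83 to 917 without single arrays, the highest without DMSO replicate 2. Between the agents 2232 were called, 6216 with array weights, 280 with the index, 1104 at 0.01 and 1351 to 2653 without single arrays. A fit over all probe sets, chosen after seeing the data, called 457 with torcetrapib and 4762 between the agents, counted over more features.

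Signs turned for TRIB3 with angiotensin II (-0.10 to 0.00187 without single arrays) and for CEBPA with torcetrapib (0.11 with the index, -0.11 to 0.052 without single arrays). Between the agents they turned for CEBPD with the index (0.21) and for CEBPG with quantile normalisation (-0.00193), the mean of probe sets (-0.045), array weights (-0.020), the index (-0.047) and without single arrays (-0.045 to 0.057). COP1 turned with torcetrapib (0.032 with the mean of probe sets, 0.19 without _x_at and _s_at) and between the agents (0.094 and 0.26), AKT2 without _x_at and _s_at (-0.28 and -0.26) and SCD with the mean of probe sets (0.19). The cause was not tested. No paired analysis was possible because the labels carry serial numbers that no groups share.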
